A study of Saccharomyces cerevisiae with 6 samples.

Results

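The genes described here serve the use of galactose in Saccharomyces cerevisiae, and they were followed in cells growing on glucose, with and without GCR2. The list holds 7 genes (GAL1, GAL2, GAL3, GAL4, GAL7, GAL10 and GAL80). A gene was represented by its brightest probe set among those that the platform annotation assigns to that gene alone. Such a probe set was found for 6 of the 7 genes, of 5449 yeast genes tested in all; GAL4 was not analysed here, since no probe set of the annotation used carries its name. Each of the 6 genes had a single probe set.

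Transcripts were measured on 6 Affymetrix yeast arrays, 3 with RNA of a strain that lacks GCR2 and 3 with RNA of the wild-type strain FY4, a prototrophic laboratory strain. Cultures of both strains were kept at 30 °C in minimal medium whose named carbon source was glucose, and cells were collected during exponential growth, per the labels. The labels name no strain for the deletion samples and do not state that the replicates of a group were separate cultures. The p-values therefore reflect only how far these samples lie apart, which can be technical in origin.

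Galactose enters the cell through Gal2 and is converted by Gal1, Gal7 and Gal10, the enzymes of the Leloir pathway, into glucose 1-phosphate, which then joins glycolysis. The activator Gal4 drives these genes. Without galactose Gal80 binds Gal4 and keeps it inactive, and with galactose the sensor Gal3 relieves that block. Glucose represses the pathway further, in part through the repressor Mig1, so that in cells on glucose the structural genes are known to be nearly silent. Gcr2, the protein missing in the deletion strain, acts with Gcr1 as an activator of glycolytic genes.

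GCR2 itself was under background on all 3 deletion arrays and was at least 27.5-fold lower there (limma adjusted p = 1.01e-06). Background was set on each array at the 95th percentile of the probe sets taken as those of the other yeast species on it. It lay between log2 intensities of 6.12 and 6.60. Along the first principal component of all genes (61.8% of the variance) the groups were apart, and deletion replicate 1 and wild-type replicate 3 lay farthest out in their groups. Poly-A spike-in controls averaged log2 7.04 to 7.49 on the deletion arrays and 7.83 to 8.58 on the wild-type arrays. With each array centred on them, the median change over the tested genes was 0.93. All 6 members were then called higher, as were 4974 of all 5449 genes. GAL7, GAL3 and GAL1 lay 0.61, 0.44 and 0.33 above that median. Elsewhere changes are given relative to all other signal on the same array. Markers of mating type and sporulation, 13 genes, gave 4 rises, 1 fall and 8 genes that did not pass. Over all genes 14.1% were called higher and 8.35% lower. STE3, the a-factor receptor gene of alpha cells, rose by 0.91, SPO11 and SPO13 of meiosis rose by 0.52 and 0.82, and IME1, the inducer of meiosis, fell by 0.33. BAR1 rose by 0.22. The other 3 alpha markers did not pass, with changes of -0.32 for MF(ALPHA)1, -0.20 for MF(ALPHA)2 and 0.23 for SAG1 (adjusted p = 0.39, 0.26 and 0.053). BAR1 and these 3 were named after their values were seen. All 13 were above background on every array. The summed intensity of the 4 alpha markers was 1960 to 2025 in the deletion and 1571 to 1847 in wild type, that of the 4 sporulation markers 1454 to 1548 and 1386 to 1504, and that of the 5 markers of mating type a 50036 to 58010 and 48569 to 56968. The calls of SPO11, SPO13 and BAR1 were lost on leaving out certain single arrays, with adjusted p up to 0.11, and their part in the results was not tested.

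Of the 6 measured galactose pathway genes, GAL7, GAL3 and GAL1 rose in the deletion, by 1.55-fold, 1.38-fold and 1.28-fold. GAL10, GAL80 and GAL2 did not pass the test. None of the 6 fell, and none was lower at an unadjusted p under 0.05 either (limma). Over all 5449 genes 14.1% were called higher and 8.35% lower, 22.5% in all (limma, adjusted p under 0.05 over all genes). The median log2 change was 0.41 over the 6 genes and 0.02 over all genes. Counts stayed at 3 when any single array was left out, and also without both deletion replicate 1 and wild-type replicate 3. For 4 of the 6 genes the deletion arrays lay wholly above the wild-type arrays, as they did for 27.1% of all genes, and 45.2% of all genes had groups apart in either direction.

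All 6 genes lay above background on every array, GAL80 by at least 5.17 and GAL1 by at least 2.78 (log2). GAL2 was the closest, 0.21 to 0.67 above it on the deletion arrays and 0.37 to 0.77 above it on the wild-type arrays (log2). GAL10 came as near on a single array, 0.25 above background in wild-type replicate 3. With the median signal of the probe sets taken as other-species ones subtracted, the changes of GAL7, GAL3 and GAL1 were 0.72, 0.51 and 0.37 (log2). In RNA of a whole culture, more cells with a transcript and more transcript in each cell cannot be told apart.

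**Figure D1:**
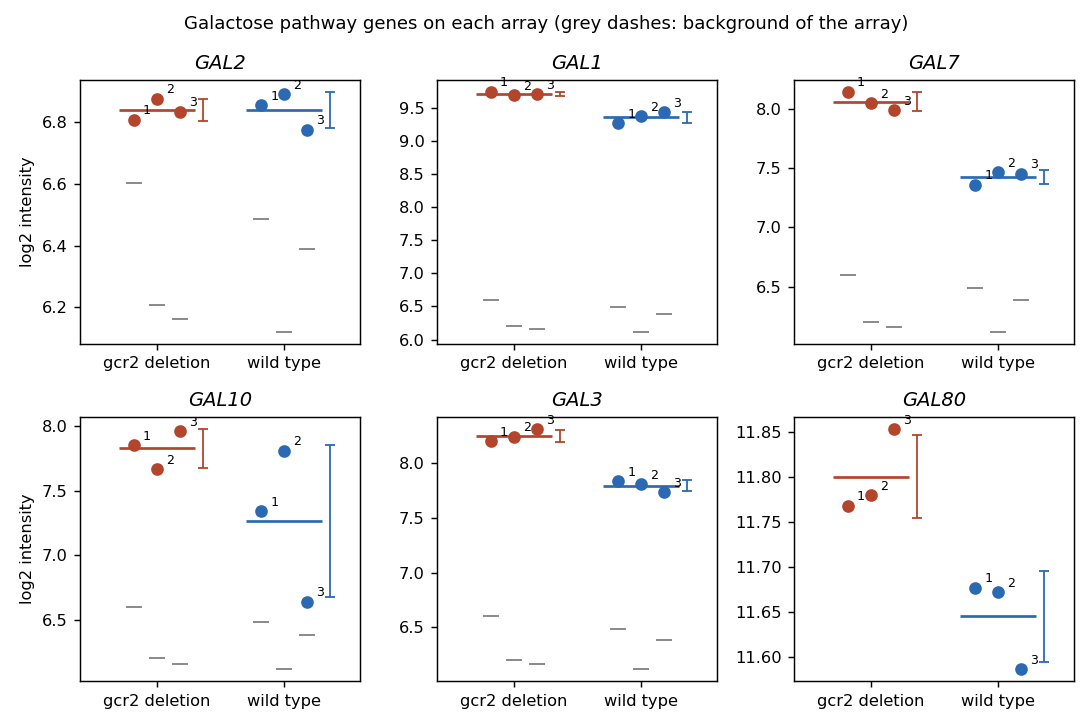
Log2 intensity of each measured galactose pathway gene on each array (points, numbered by replicate), gcr2 deletion left and wild type right; horizontal bars are group means, error bars ± SD (n = 3), grey dashes the background of each array (outside the panel for GAL80), and each panel has its own vertical axis. GAL7, GAL3, GAL1 and GAL80 separate the groups, GAL2 lies at 6.84 in both, and wild-type GAL10 spreads from 6.64 to 7.81.

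The structural genes come first. GAL2, which codes for the galactose permease, was at log2 6.81, 6.88 and 6.84 on deletion arrays 1 to 3, against 6.86, 6.89 and 6.78 on wild-type arrays 1 to 3. The groups overlapped fully, with means of 6.84 ± 0.035 and 6.84 ± 0.059 (SD, n = 3 each). The fitted change was -0.0003 with a 95% interval of -0.11 to 0.11, which leaves room for a difference of up to 1.08-fold either way (limma adjusted p = 0.997).

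GAL1 codes for galactokinase, the first enzyme of the pathway. Its log2 intensity was 9.74, 9.69 and 9.71 on the deletion arrays and 9.27, 9.38 and 9.44 on the wild-type arrays. Every deletion array stood above every wild-type array, with a gap of 0.25 between the nearest values. The change was 0.35 (SE 0.05, 95% interval 0.22 to 0.48, adjusted p = 0.0094). Its adjusted p reached 0.047 without deletion replicate 3, close to the threshold.

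GAL7 codes for galactose-1-phosphate uridylyltransferase, the second enzyme. It read 8.15, 8.05 and 7.99 in the deletion, against 7.36, 7.47 and 7.46 in wild type. The distance between the nearest arrays of the groups, 0.52, exceeded the range within either group, 0.16 in the deletion and 0.11 in wild type. GAL7 had the smallest adjusted p of the 6 genes and the largest change, 0.63 (SE 0.06, 95% interval 0.49 to 0.77, adjusted p = 0.0019). On the linear scale its mean intensity was 268 in the deletion and 172 in wild type.

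GAL10 codes for a bifunctional enzyme that interconverts the galactose anomers and the UDP-sugars. It read 7.86, 7.67 and 7.96 in the deletion and 7.34, 7.81 and 6.64 in wild type. Wild-type replicate 2 lay inside the deletion range and wild-type replicate 3 far under it. The wild-type SD, 0.59, was larger than that of 98.5% of the tested genes, and the deletion SD, 0.15, larger than that of 89.3%. The fitted change, 0.57, was close to that of GAL7, but its interval ran from -0.13 to 1.26 and it was not called (SE 0.29, adjusted p = 0.20). Wild-type arrays decided the size: the change was 0.84 without replicate 2 (adjusted p = 0.052) and 0.25 without replicate 3 (adjusted p = 0.32).

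Both regulatory members that were measured control the activity of Gal4, Gal80 by binding it and Gal3 by relieving that block. GAL3, the paralog of GAL1 whose product senses galactose, read 8.20, 8.24 and 8.31 in the deletion and 7.83, 7.81 and 7.74 in wild type. The groups did not overlap, and the nearest arrays were 0.37 apart. GAL3 rose by 0.46 (SE 0.05, 95% interval 0.34 to 0.58, adjusted p = 0.0034).

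GAL80, which codes for the inhibitor of Gal4, was well above background on all arrays. It read 11.77, 11.78 and 11.85 in the deletion, against 11.68, 11.67 and 11.59 in wild type. All 3 deletion arrays were above all wild-type arrays, but by a small margin of 0.09 between the nearest. The change of 0.16 (SE 0.05, 95% interval 0.04 to 0.27) did not pass the test over all genes (adjusted p = 0.061). With array weights, which count the more even arrays more, it passed (adjusted p = 0.032), which made 4 called members. Those weights also raised the number of all genes called higher from 769 to 1147. Deletion replicate 3 had a weight of 4.06 and wild-type replicate 3 a weight of 0.32.

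**Figure D2:**
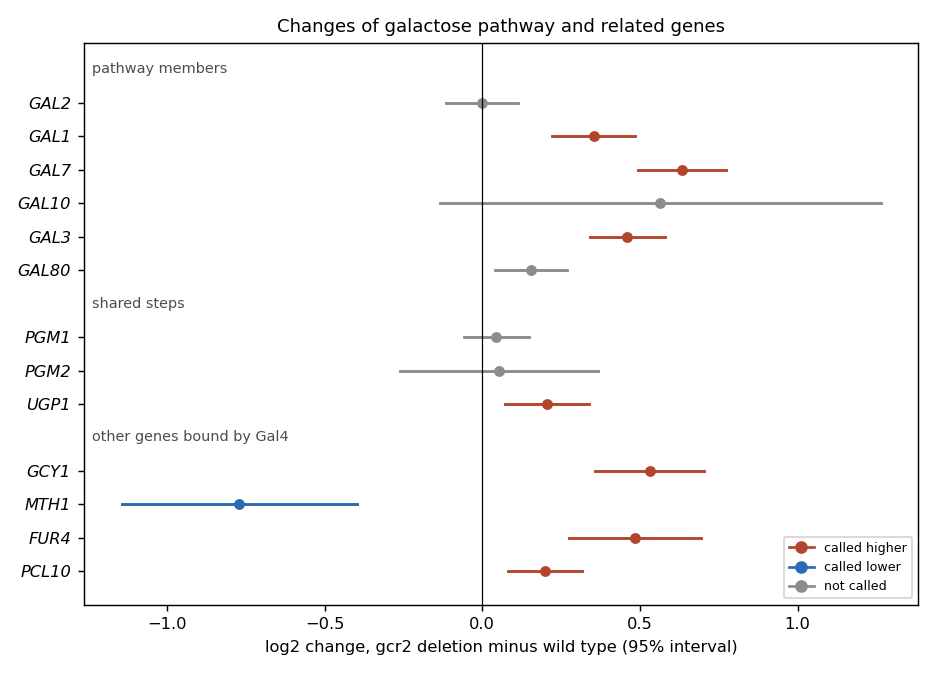
Log2 change, gcr2 deletion minus wild type, with the 95% interval of the limma fit (3 arrays a group), for the measured galactose pathway genes, the genes of the shared steps and other genes bound by Gal4; red marks genes called higher, blue called lower and grey not called at an adjusted p of 0.05. GAL1, GAL7 and GAL3 lie between 0.35 and 0.63, GAL10 has the widest interval of the members, and MTH1 is the only gene drawn that was called lower.

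GAL7, GAL10 and GAL1 lie next to each other on chromosome II of assembly R64 (YBR018C, YBR019C and YBR020W), GAL10 and GAL1 being transcribed away from each other. The genes on both sides of this cluster were also called higher. FUR4 (YBR021W), the uracil permease gene next to GAL1, read 11.98, 11.73 and 11.83 in the deletion, against 11.49, 11.28 and 11.32 in wild type. The groups did not overlap, and FUR4 rose by 0.48 (SE 0.09, adjusted p = 0.014). That call was lost without deletion replicate 3 (adjusted p = 0.060) and without both deletion replicate 1 and wild-type replicate 3 (adjusted p = 0.083).

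KAP104 (YBR017C), a nuclear import receptor gene next to GAL7, had log2 intensities of 12.23 to 12.24 in the deletion and of 12.06 to 12.11 in wild type, and rose by 0.15 (adjusted p = 0.032). Its call held in 1 of the 6 fits that leave out 1 array, the one without wild-type replicate 3, and elsewhere the adjusted p reached 0.12. An antisense RNA that comes after GAL10 in the order of gene starts was not analysed here. Within arrays, the change of GAL7 exceeded that of GAL1 by 0.28, and that of GAL10 exceeded it by 0.21 (GAL7 over GAL10, 0.07). The exact two-sided permutation p was 0.1 for GAL7 against GAL1, the smallest that 3 arrays against 3 can give, and 0.3 after adjustment over the 3 pairs. It was 0.8 for GAL10 against GAL1 and 0.9 for GAL7 against GAL10, each 0.9 adjusted.

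**Figure D3:**
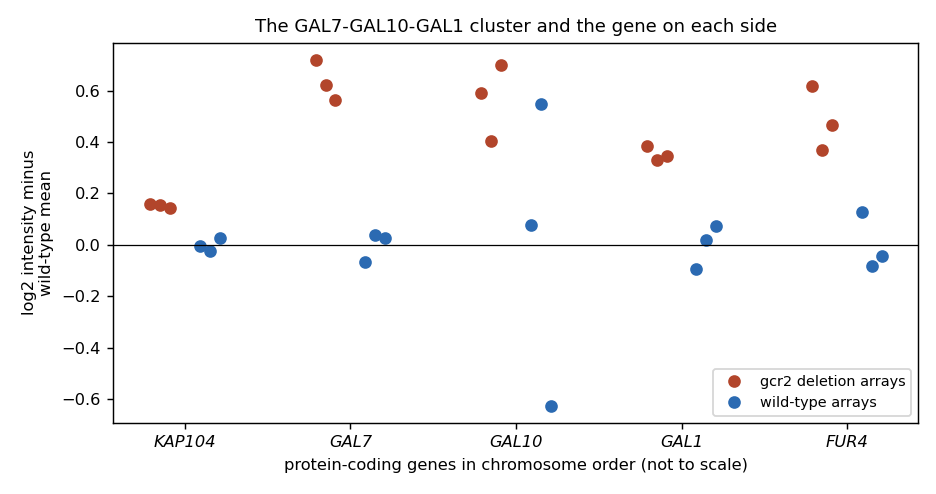
Log2 intensity minus the wild-type mean of the same gene (vertical axis) for the GAL7, GAL10 and GAL1 cluster and the protein-coding gene on each side, in chromosome order with spacing not to scale; each point is an array, gcr2 deletion left and wild type right for each gene. The groups separate for all genes except GAL10, where 1 wild-type array lies among the deletion arrays and another at -0.63.

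Elsewhere the neighbours of the members did not pass the test. Next to GAL2, on chromosome XII, EMP46, for a lectin-like membrane protein of the secretory pathway, differed by -0.17 and SRL2 by -0.11. Next to GAL80, on chromosome XIII, SUR7, for a plasma membrane protein, differed by 0.14 (adjusted p = 0.097) and AIM32 by 0.0022. YPL247C, next to GAL4 on chromosome XVI, differed by 0.35, with all deletion arrays above all wild-type arrays (adjusted p = 0.080). The annotated neighbours of GAL3, on chromosome IV, were not analysed here.

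Genes outside the pathway that Gal4 is reported to bind did not all go the way of GAL1, GAL3 and GAL7. Of 4 such genes 3 rose and 1 fell, with a median change of 0.34 against 0.02 for all genes. Over all genes 14.1% were called higher and 8.35% lower. GCY1, for an aldo-keto reductase of glycerol breakdown, read 10.56, 10.75 and 10.78 in the deletion and 10.12, 10.23 and 10.15 in wild type. It rose by 0.53 (SE 0.07, adjusted p = 0.0065), and the call held whichever array was left out. FUR4, described above, was the second gene that rose. PCL10, a cyclin gene of the Pho85 kinase, rose by 0.20 (adjusted p = 0.033), a call that held in 1 of the 6 fits with 1 array left out, that without wild-type replicate 3, and elsewhere had an adjusted p of up to 0.13.

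MTH1, which codes for a corepressor of hexose transporter genes, was the one that fell. It read 10.34, 10.55 and 10.90 in the deletion, against 11.35, 11.52 and 11.23 in wild type. All deletion arrays were under all wild-type arrays, with more spread in the deletion (SD 0.28) than in wild type (SD 0.15). MTH1 fell by 0.77 (SE 0.15, adjusted p = 0.020). The call was lost without deletion replicate 1, deletion replicate 2 or wild-type replicate 1, with adjusted p up to 0.067.

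Steps around glucose 1-phosphate are shared between the use of galactose and the storage carbohydrates. Of 3 genes 1 rose and the other 2 did not pass, where 14.1% of all genes were called higher. PGM1 and PGM2, the phosphoglucomutase genes, differed by 0.05 each (adjusted p = 0.47 and 0.79). UGP1, for the pyrophosphorylase that makes UDP-glucose, read 13.38, 13.49 and 13.46 in the deletion and 13.20, 13.32 and 13.20 in wild type. The groups did not overlap, though by a narrow margin. UGP1 rose by 0.21 (SE 0.05, adjusted p = 0.043); leaving out any single array other than wild-type replicate 2 ended the call, with adjusted p up to 0.15.

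**Figure D4:**
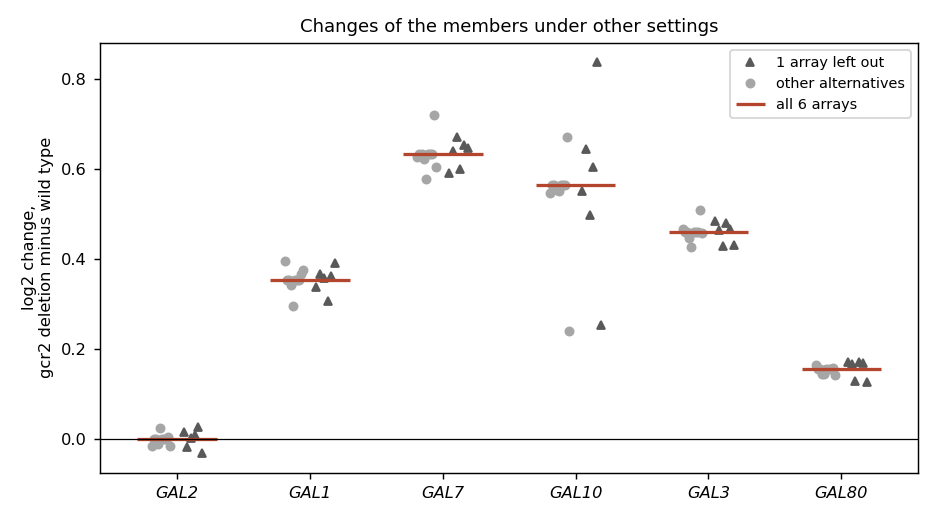
Log2 change, gcr2 deletion minus wild type, of each measured galactose pathway gene with all 6 arrays (red bar), with 1 array left out (triangles) and under the other alternatives (circles); centring on spike-in controls, which moves all genes, is not drawn. GAL1 stays between 0.30 and 0.39, GAL3 between 0.43 and 0.51 and GAL7 between 0.58 and 0.72, whereas GAL10 runs from 0.24 to 0.84 and GAL2 lies around 0.

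Regulators through which glucose acts on the galactose genes went both ways. Among 15 such genes there were 3 rises and 3 falls, and 9 genes did not pass. Over all genes 14.1% were called higher and 8.35% lower. The median change of the list was 0.08. The genes that fell were those of the Mig repressors. MIG1 read 11.15, 11.22 and 11.35 in the deletion, against 11.79, 11.88 and 11.78 in wild type, and fell by 0.58 (SE 0.06, adjusted p = 0.0037). MIG2 fell by 0.46 (adjusted p = 0.012) and MIG3 by 0.30 (adjusted p = 0.019). The MIG1 call held whichever array was left out. MIG2 lost its call without both deletion replicate 1 and wild-type replicate 3 (adjusted p = 0.082), and MIG3 without any one of the deletion replicates or without wild-type replicate 1 (adjusted p up to 0.077).

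NRG1, another repressor of glucose-repressed genes, rose by 0.55 (SE 0.08, adjusted p = 0.0084), with 9.32, 9.40 and 9.57 in the deletion and 8.80, 8.98 and 8.85 in wild type. The others that rose, named after their values were seen, were HXK2, the hexokinase gene with a part in glucose repression, by 0.18 and GAL83, for a subunit of the Snf1 kinase, by 0.16. The calls of HXK2 and GAL83 held in 1 of the 6 fits with 1 array left out, that without wild-type replicate 3. Elsewhere the adjusted p reached 0.12.

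Genes for coactivators that Gal4 recruits changed little apart from one. Among 14 measured there were 2 rises and 1 fall, and 11 genes did not pass. These counts are near the shares over all genes, 14.1% called higher and 8.35% lower. The median change was 0.08. SSN3, the kinase of the Mediator complex, which phosphorylates Gal4, read 11.0, 10.85 and 11.01 in the deletion, against 11.80, 11.73 and 11.55 in wild type. It fell by 0.74 (SE 0.08, adjusted p = 0.0037), whichever array was left out. The Mediator genes MED8 and SIN4 rose by 0.25 and 0.22, and PGD1 differed by 0.16 (adjusted p = 0.057). Both rises were lost without any one deletion replicate or without wild-type replicate 1, and that of SIN4 also without wild-type replicate 3 (adjusted p up to 0.11).

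**Figure D5:**
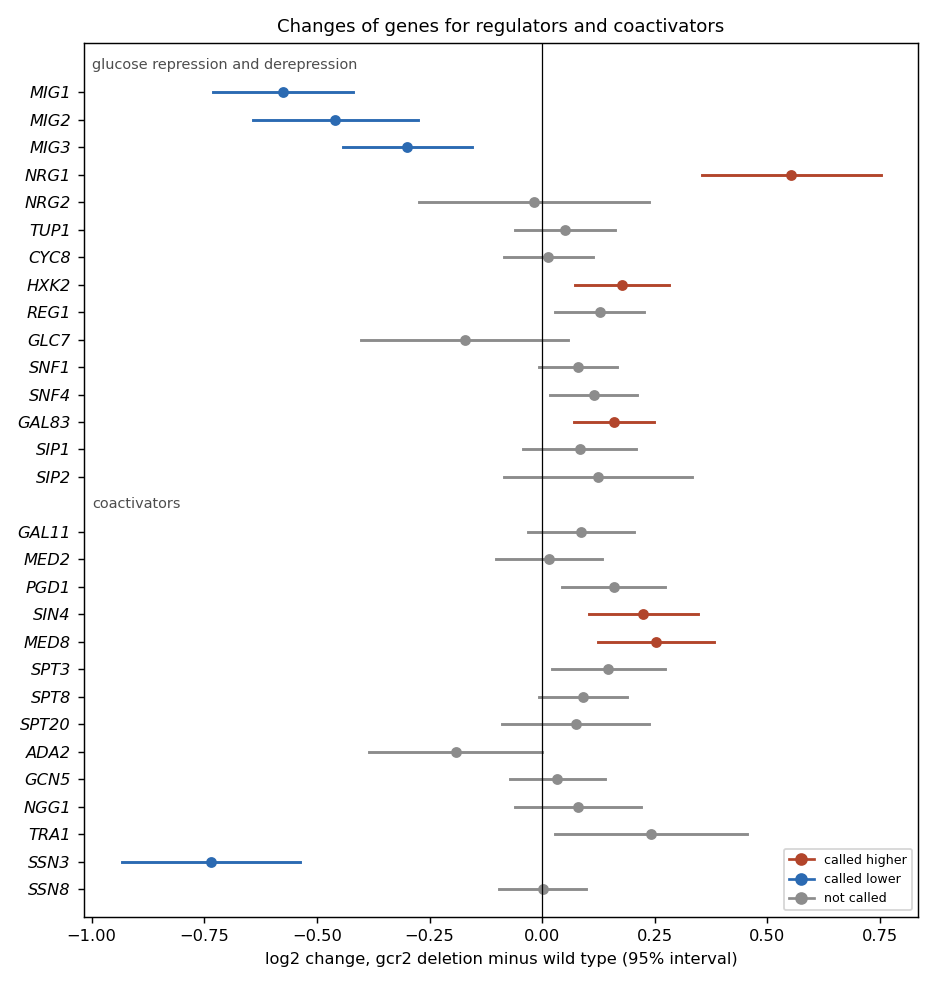
Log2 change, gcr2 deletion minus wild type, with the 95% interval of the limma fit (3 arrays a group), for 15 genes of glucose repression and derepression and 14 genes of coactivators that Gal4 recruits; red marks genes called higher, blue called lower and grey not called. MIG1, MIG2, MIG3 and SSN3 are the genes called lower, and NRG1 has the largest rise, 0.55.

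Of the Gcr1 and Gcr2 module, GCR1 fell by 0.95 (adjusted p = 0.0014) and RAP1, for the factor that helps Gcr1 to bind, differed by -0.12 (adjusted p = 0.18).

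By the measure used, the genes whose profile over the 6 arrays lay closest to that of GAL7 were not members of the pathway. Likeness was the root mean square difference between log2 profiles, each centred on its own mean, among 5256 other genes above background on all arrays. CDC6, a loading factor for the replicative helicase, came first with 0.042, followed by YHR112C with 0.054, YMR315W with 0.058, HFM1, a meiotic helicase gene, with 0.063 and OXP1, for oxoprolinase, with 0.063. These 5 genes differed between the groups by 0.59 to 0.64, which follows from picking them by likeness to GAL7. Among the members GAL3 was 92nd with 0.13 and GAL1 129th with 0.15. GAL80 was 1110th, GAL2 2704th and GAL10 3469th, with 0.26, 0.33 and 0.36. That measure also counts the size of a change. Pearson correlation with GAL7 was 0.980 for GAL1 and 0.981 to 0.992 for the 5 closest genes. It was 0.94 for GAL3, 0.82 for GAL80, 0.61 for GAL10 and -0.05 for GAL2.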

How the data were processed

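The authors deposited 1 table of probe-set intensities on a linear scale for 10928 probe sets, between 9.14 and 37181. Per the submitters' processing notes it was made with R 2.8.0, the affy package and RMA. The genome build was not given in the sources used here. RMA gives all arrays the same distribution of probe intensities, so a change of all transcripts together is largely removed. Medians of the deposited probe-set intensities still ran from 233 in wild-type replicate 3 to 260 in deletion replicate 1. Here log2 was taken with no pseudocount. The annotation gave 7244 probe sets 1 gene, gave 1 several and did not list 3683. By gene identifier 5498 matched assembly R64, used for names and gene order only. The other 1746 did not match, were taken to belong to the other species without a check, and set the background. No gene was removed for low signal. Deletion arrays were compared with wild-type arrays by limma 3.58.1 in R 4.3.3 (lmFit, eBayes, no covariates, two-sided, Benjamini-Hochberg over 5449 genes, called at an adjusted p under 0.05). The fit was also run on data simulated with independent normal noise, with variances drawn from the fitted prior. It recovered 21 of 50 log2 changes of 0.3, 38 of 50 of 0.5 and 49 of 50 each of 1 and 2, with 12 false calls. That result holds only for noise of that kind. Pairs of members were compared by exact permutation with SciPy 1.17.1. "Rose" and "fell" mean called genes. The number of arrays limits the precision. Identical arrays were not found.

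The members and gene lists were chosen with earlier results of these data known. Named are the members, GCR2, the genes of the shared steps, the Gal4-bound list and the Gcr1 and Gcr2 module, up to 4 genes of each remaining list in order of adjusted p, the neighbours of members, and the 5 genes most like the member with the smallest adjusted p. Genes outside this rule are said to be so.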

Additional observations from a re-analysis of the deposited data

How the results depend on the processing

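Each of the 6 members was recomputed under 17 alternatives, of which 14 were planned and 3 added after seeing the data (leaving out both deletion replicate 1 and wild-type replicate 3, centring on poly-A controls, subtracting unspecific signal). The calls of GAL1, GAL3 and GAL7 held in all 17. Averaging the probe sets of a gene and removing dim probe sets left the members' changes as they were. Those alternatives, and centring on poly-A controls, could hardly end these calls. GAL2, near 0, changed sign: it lay between -0.033 and 0.025 with 1 array left out, at 0.023 with quantile normalization over tested genes and at 0.0040 with unspecific signal subtracted. GAL80 was called with array weights (0.16). Centring on poly-A controls raised the median of all genes to 0.93 and called all 6 members, GAL2 at 0.91, GAL10 at 1.47 and GAL80 at 1.06; relative to that median GAL1, GAL3 and GAL7 were at 0.33, 0.44 and 0.61. It called 4982 genes, 4974 higher and 8 lower, and of the other listed genes, GCR2 left aside, 50 higher and 0 lower; MIG1, MIG2, MIG3, MTH1, SSN3, MAL33 and IME1 changed sign. With all arrays 1224 genes were called, 769 higher and 455 lower; with 1 array left out 406 to 1225, 239 to 751 and 167 to 474; without both deletion replicate 1 and wild-type replicate 3, 328, 199 and 129. The unmoderated statistic called 287 lower. Of the other listed genes without GCR2, 15 were called higher and 8 lower; 5 to 12 higher and 6 to 9 lower with 1 array left out, and 4 higher without both arrays.

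Same-numbered arrays deviated from their group means with correlations of 0.53, -0.17 and -0.44 over genes, so the numbers were not taken to pair the samples. Between arrays of different numbers the correlations ran from -0.66 to 0.58. Deletion replicate 2 with wild-type replicate 3 gave 0.58, and deletion replicate 3 with wild-type replicate 2 gave 0.49. The origin of these correlations was not tested, and no block that joins the arrays by them was fitted. The only block fitted, by replicate number, also joins arrays with the negative correlations of -0.17 and -0.44. With the replicate number as a block 733 genes were called, 433 higher and 300 lower, and of the other listed genes without GCR2 6 higher and 6 lower. Among genes named, it ended the calls of UGP1, PCL10, MTH1, MIG3, HXK2, GAL83, MED8, SIN4, MAL13, BAR1, SPO13 and KAP104 (adjusted p of 0.0501 for MAL13 to 0.082 for BAR1). The block left the members' calls as they were, with an adjusted p of 0.025 for GAL7. Median centring over tested genes ended the calls of PCL10, HXK2, GAL83, BAR1 and KAP104. Quantile normalization over tested genes ended the same calls and that of UGP1. With the unmoderated statistic the calls of UGP1, MTH1, PCL10, BAR1, SPO11 and SPO13 were lost.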

Other observations

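Genes for the use of maltose and sucrose, sugars whose genes are also repressed by glucose, went both ways. Among 8 measured there were 2 rises and 1 fall, and 5 genes did not pass. Over all genes 14.1% were called higher and 8.35% lower. The median change of the list was 0.03, against 0.02 for all genes. MAL33, for an activator of maltose genes, read 8.80, 8.96 and 9.04 in the deletion, against 9.61, 9.88 and 9.67 in wild type, and fell by 0.79 (SE 0.09, adjusted p = 0.0047). IMA1, for isomaltase, rose by 0.61 (SE 0.07, adjusted p = 0.0037), with 8.64, 8.68 and 8.72 in the deletion and 8.02, 7.99 and 8.20 in wild type. MAL13, another activator gene of that family, rose by 0.43 (adjusted p = 0.014), and its call was lost without both deletion replicate 1 and wild-type replicate 3 (adjusted p = 0.089). MAL11, a maltose transporter gene with the next smallest adjusted p, differed by 0.11 (adjusted p = 0.57).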
